A study of Citrus sinensis with 24 samples.

Results

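The RNA of 4 genes of sweet orange (Citrus sinensis), named for ion channels, a borate transporter and a metal-binding protein, was followed in developing fruits: KAT3 (Cs4g20090), CNGC1 (Cs9g18100), BOR4 (Cs1g13320) and HIPP27 (Cs1g25820). The names are those of the closest Arabidopsis genes. They are 4 of the 24166 genes with a count, and 4 of the 9 genes in the transport category of a published list of 72 genes. The list was selected on these same 24 libraries, by the correlation of each gene's level with the sugar/acid ratio of the fruit, among genes that differed between the stages in some variety. The differences between varieties at 142 DPA and between the stages are therefore given as a description, without a test. The sugar and acid measurements themselves were not used here.

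The series compared fruits of 4 varieties grown on trees in the field, at 45 and 142 days post anthesis (DPA), by RNA-seq of total RNA. The labels call Newhall and Xinhui acidic, Bingtang low in acid and Succari acidless. Each of the 8 variety and stage groups had 3 replicates, and the labels name the tissue only as fruit. They do not say whether the replicates came from separate trees, so a p-value measures the spread between these samples only. The libraries held from 3.8e+06 to 5.9e+06 counted reads, and levels are given as CPM, counts scaled to a common library total, in which 1 read was worth 0.170 to 0.266 CPM.

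Potassium is the main inorganic cation of plant cells and, with organic acids and sugars, sets the osmotic potential of the large vacuole of a fruit cell. Shaker-type channels carry potassium through the plasma membrane as tetramers, and in Arabidopsis KAT3 is a subunit that forms no working channel alone but changes the conductance of the channels it joins. CNGC1 belongs to the cyclic nucleotide-gated channels, which let cations through the plasma membrane and bind calmodulin. BOR4 of Arabidopsis exports borate from cells and gives tolerance to high boron, an element that crosslinks pectin in the cell wall. HIPP27 is one of the heavy metal-associated isoprenylated plant proteins, a plant family with a metal-binding domain and a lipid anchor.

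**Figure D1:**
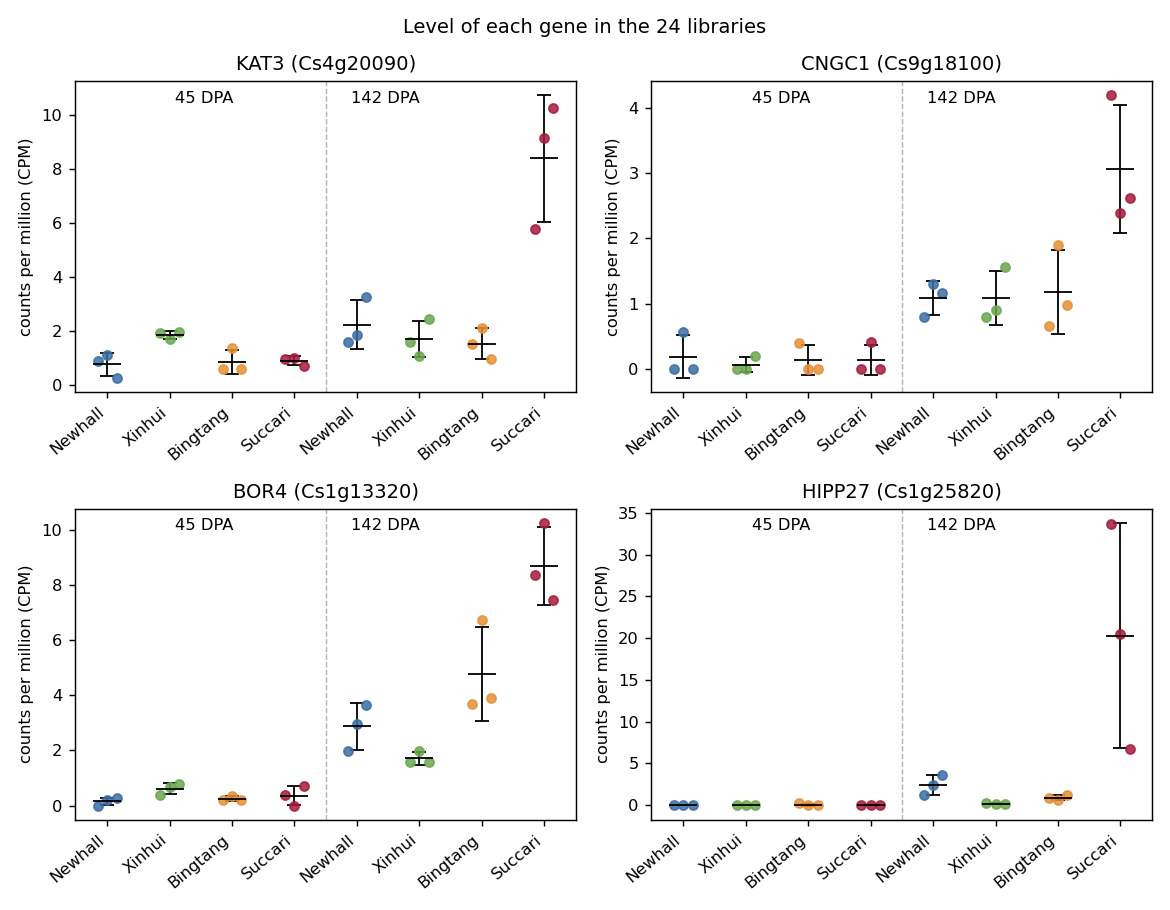
Level of KAT3, CNGC1, BOR4 and HIPP27 in CPM (counts scaled to a common library total, vertical axes, which differ between panels) in each of the 24 libraries, by variety, with 45 DPA left and 142 DPA right of the dashed line. Points are libraries and bars are the mean ± SD of 3 replicates. In each panel the 3 Succari libraries of 142 DPA lie above the other 9 of that stage, and HIPP27 runs from 6.72 to 33.7 CPM among them.

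KAT3 was highest in Succari at 142 DPA, where replicates 1, 2 and 3 had 5.76, 9.16 and 10.3 CPM (8.40 ± 2.35, SD, n = 3). At the same stage it was 1.58, 1.86 and 3.28 CPM in Newhall, 1.59, 1.08 and 2.43 CPM in Xinhui and 1.52, 2.10 and 0.974 CPM in Bingtang. The 3 other varieties thus overlapped each other, and the lowest Succari library stood above the highest of them, Newhall replicate 3. At 45 DPA it was 0.889, 1.13 and 0.266 CPM in Newhall and 1.92, 1.70 and 1.95 CPM in Xinhui. Bingtang had 0.594, 1.36 and 0.591 CPM and Succari 0.967, 1.01 and 0.702 CPM at that stage. Xinhui was the 1 variety in which the mean of KAT3 was not lower in the young fruits than in the older ones, at 1.86 ± 0.139 and 1.70 ± 0.680 CPM. In Bingtang the libraries of the stages overlapped too, with 1.36 CPM in a young and 0.974 CPM in an older one. In the order of the 8 group means, Succari at 142 DPA came first, followed by Newhall at 142 DPA and Xinhui at 45 DPA, and Newhall at 45 DPA came last. No neighbours in that order other than Succari and Newhall at 142 DPA were free of overlap between their libraries.

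CNGC1 was close to the limit of detection at 45 DPA, with reads in 4 of the 12 libraries, 1 of each variety. It was 0.563 CPM in Newhall replicate 2, 0.195 CPM in Xinhui replicate 3, 0.396 CPM in Bingtang replicate 1 and 0.406 CPM in Succari replicate 2, and 0 in all other libraries of that stage. At 142 DPA every library had reads. The levels were then 0.789, 1.30 and 1.16 CPM in Newhall, 0.795, 0.903 and 1.56 CPM in Xinhui, 0.651, 1.89 and 0.974 CPM in Bingtang and 4.19, 2.38 and 2.61 CPM in Succari. Newhall, Xinhui and Bingtang overlapped, with means of 1.08 ± 0.263, 1.09 ± 0.415 and 1.17 ± 0.644 CPM. Succari had 3.06 ± 0.985 CPM, and its lowest library stood at 2.38 CPM against 1.89 CPM in the highest Bingtang library. Among the ordered group means, gaps without overlap lay below Succari at 142 DPA and between the 142 DPA and the 45 DPA groups.

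BOR4 differed from both channels in that Bingtang stood above Newhall and Xinhui at 142 DPA. Its levels at that stage were 8.38, 10.3 and 7.47 CPM in Succari, 3.69, 6.73 and 3.90 CPM in Bingtang, 1.97, 2.97 and 3.67 CPM in Newhall and 1.59, 1.99 and 1.56 CPM in Xinhui. The means followed the order Succari (8.70 ± 1.42 CPM), Bingtang (4.77 ± 1.70 CPM), Newhall (2.87 ± 0.851 CPM) and Xinhui (1.71 ± 0.237 CPM). The libraries of Newhall and Xinhui overlapped, whereas those of Succari and Bingtang did not, nor did those of Bingtang and Newhall, although the last gap was only 3.69 against 3.67 CPM. At 45 DPA the levels were 0, 0.188 and 0.266 CPM in Newhall, 0.383, 0.679 and 0.782 CPM in Xinhui, 0.198, 0.341 and 0.197 CPM in Bingtang and 0.387, 0 and 0.702 CPM in Succari. All 12 libraries of 45 DPA lay under the lowest library of 142 DPA.

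HIPP27 was nearly silent in young fruits and differed most among the older ones. At 45 DPA 1 read was counted in 12 libraries, in Bingtang replicate 1 (0.198 CPM). At 142 DPA its levels were 33.7, 20.5 and 6.72 CPM in Succari, 1.18, 2.41 and 3.67 CPM in Newhall, 0.868, 0.631 and 1.17 CPM in Bingtang and 0.199, 0.181 and 0.174 CPM in Xinhui, where each library held a single read. The order of means was Succari (20.3 ± 13.5 CPM), Newhall (2.42 ± 1.24 CPM), Bingtang (0.889 ± 0.270 CPM) and Xinhui (0.184 ± 0.0131 CPM). No pair of neighbouring groups overlapped at this stage, but the lower gaps were thin. That between Newhall and Bingtang was 1.18 against 1.17 CPM, with 6 reads in each of these libraries. That between Bingtang and Xinhui was 0.631 against 0.199 CPM, or 3 reads against 1. The mean of Newhall stood above that of Bingtang for this gene, the reverse of BOR4. Within Succari at 142 DPA the highest library was 5.02 times the lowest for HIPP27, against 1.78 times for KAT3, 1.76 times for CNGC1 and 1.37 times for BOR4. Over all groups edgeR put the biological coefficient of variation at 0.458 for HIPP27, 0.281 for CNGC1, 0.205 for KAT3 and 0.199 for BOR4, against a median of 0.130 over the tested genes. Since RNA came from bulk tissue, fewer cells of a type and less RNA per cell cannot be told apart.

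**Figure D2:**
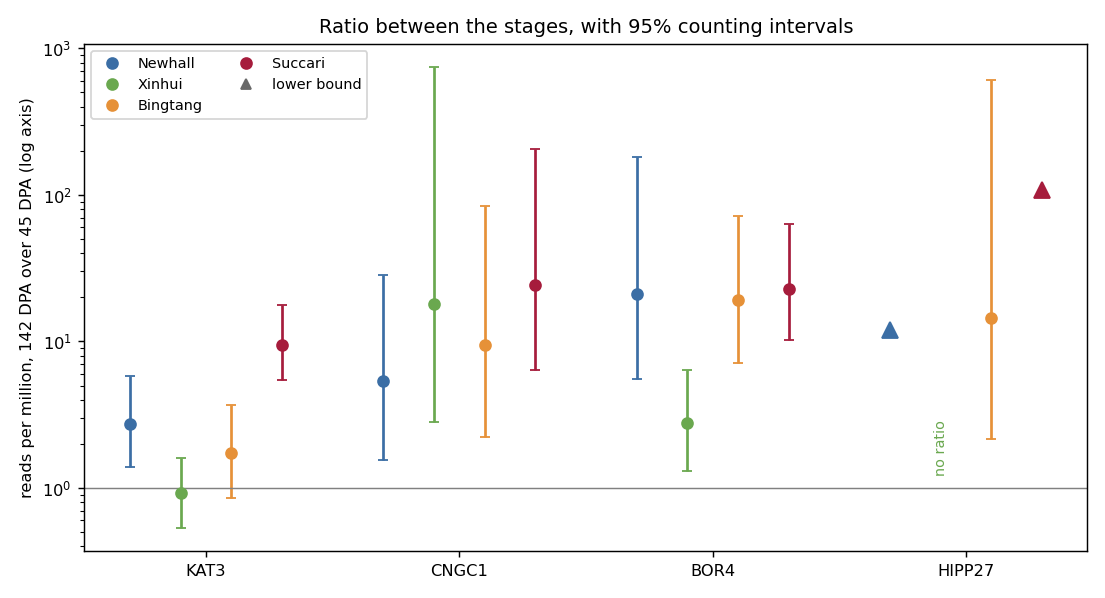
Ratio of reads scaled by depth between the stages (142 over 45 DPA, log axis) for each gene and variety, from reads summed over 3 replicates, with 95% intervals for counting error only. Triangles, marked as lower bounds, are ratios with a floor of 3 reads set where no read was counted at 45 DPA, without an interval. KAT3 in Xinhui, at 0.927, is the 1 ratio below 1.

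The difference between the stages was computed in each variety from reads summed over the 3 replicates, with 95% intervals that cover counting error only. KAT3 reads went from 14 at 45 DPA to 138 at 142 DPA in Succari, a ratio of 9.41 (5.42 to 17.7) after scaling by depth. The ratio was 2.74 (1.39 to 5.80) in Newhall, 1.73 (0.848 to 3.67) in Bingtang and 0.927 (0.534 to 1.61) in Xinhui. The interval of Succari lay above those of Bingtang and Xinhui, which both included 1, and met that of Newhall. CNGC1 was higher at 142 DPA in all 4 varieties, with ratios of 24.3 (6.40 to 206.5) in Succari, 17.9 (2.82 to 745) in Xinhui, 9.38 (2.23 to 83.7) in Bingtang and 5.33 (1.54 to 28.4) in Newhall. These rest on 1 to 3 reads per variety at 45 DPA, and their intervals overlap widely, so no order of the varieties can be read from them.

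BOR4 was higher at 142 DPA, with ratios of 21.2 (5.53 to 180.1) in Newhall, 19.0 (7.11 to 71.8) in Bingtang and 22.9 (10.3 to 63.5) in Succari. The ratio was 2.78 (1.31 to 6.42) in Xinhui. The reads at 45 DPA were 2 in Newhall, 4 in Bingtang, 6 in Succari and 10 in Xinhui. The intervals of Newhall, Bingtang and Succari overlap widely, so neither an order nor a likeness of these varieties can be read from them. The Xinhui interval ended below that of Bingtang and of Succari, and met that of Newhall. For HIPP27, a floor of 3 reads, set for a group without reads, put the ratio at 108.5 in Succari (0 against 341 reads). In Newhall (0 against 38 reads) it put the ratio at 11.9. Both values depend on the floor chosen and have no interval, so they are not firm minimum ratios. In Bingtang the ratio was 14.3 (2.16 to 609.7), from 1 and 13 reads, and for Xinhui, with 0 and 3 reads, no ratio is given.

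The libraries of the 2 stages did not overlap for 4 of the 4 genes in Newhall and 4 of 4 in Succari, the older fruits being higher. In Xinhui and in Bingtang this held for 3 of the 4, KAT3 being the exception in both. Such a lack of overlap was common among the 20739 tested genes, at 38.5% in Newhall, 33.6% in Bingtang, 31.2% in Succari and 28.4% in Xinhui. Because the 4 genes were chosen by stage differences in these libraries, nothing is read from their counts. In the edgeR fit the log2 fold change of KAT3 between the stages was 3.19 (SE 0.400) in Succari, 1.27 (SE 0.475) in Newhall, 0.74 (SE 0.493) in Bingtang and -0.06 (SE 0.419) in Xinhui, or -0.49 in Xinhui without replicate 3 of 142 DPA. That of BOR4 was 4.44 (SE 0.468) in Succari, 4.08 (SE 0.537) in Bingtang, 4.01 (SE 0.657) in Newhall and 1.49 (SE 0.514) in Xinhui. It was 3.38 in Newhall without replicate 1 of 45 DPA and 5.30 in Succari without replicate 3 of 45 DPA.

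**Figure D3:**
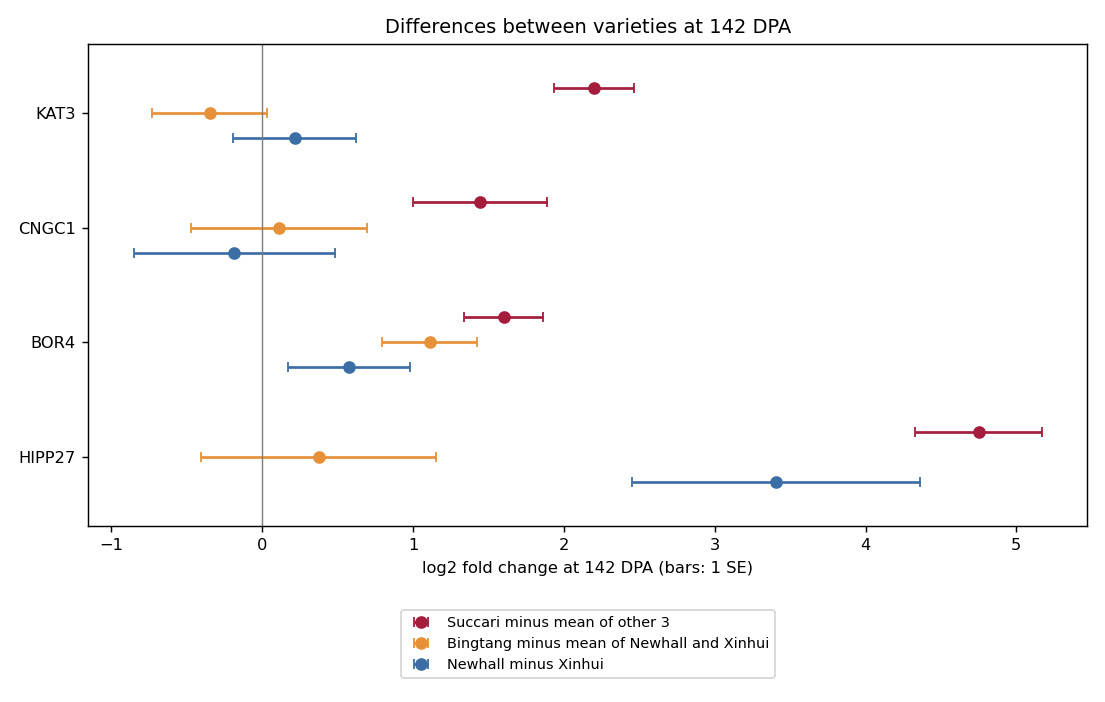
Log2 fold change between varieties at 142 DPA (horizontal axis) for each gene, from the edgeR fit of 24 libraries, with bars of 1 SE. Succari stands above the mean of the other 3 varieties for each gene (1.45 to 4.75), Bingtang above the mean of Newhall and Xinhui by 1.11 for BOR4, and Newhall above Xinhui by 3.41 for HIPP27.

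At 142 DPA, in the fruits that chose the list, Succari stood over the mean of the other 3 varieties by a log2 fold change of 4.75 (SE 0.421) for HIPP27, 2.20 (SE 0.264) for KAT3, 1.60 (SE 0.259) for BOR4 and 1.45 (SE 0.444) for CNGC1. In summed reads HIPP27 was 17.7 times (13.3 to 24.1) as abundant in Succari as in the other 3 together, KAT3 4.56 times (3.46 to 6.05), BOR4 2.85 times (2.24 to 3.62) and CNGC1 2.76 times (1.84 to 4.13). These 95% intervals, and those of the ratios below, cover counting error only and not the spread between replicates. For HIPP27 the Succari replicates ran from 6.72 to 33.7 CPM. The log2 fold change of HIPP27 was 4.13 without Succari replicate 1 and 5.18 without replicate 3. The gap depended on which variety Succari was set against. For HIPP27 the ratio was 8.49 (6.06 to 12.2) over Newhall, 23.0 (13.3 to 43.6) over Bingtang and 112.2 (38.1 to 546.9) over Xinhui. For BOR4 it was 1.83 (1.36 to 2.47) over Bingtang, 3.03 over Newhall and 5.08 over Xinhui. Because the 4 genes were chosen by a correlation across these libraries, nothing is read from the next counts. All 3 Succari libraries stood above the other 9 for 4 of the 4 genes, and for 5.56% of the tested genes. For Bingtang above Newhall and Xinhui this was so for 1 of the 4, BOR4, and for 5.45% of the tested genes. The Bingtang log2 fold change over the mean of those varieties was 1.11 (SE 0.314) for BOR4, 0.38 (SE 0.779) for HIPP27, 0.11 (SE 0.582) for CNGC1 and -0.35 (SE 0.380) for KAT3, and that of BOR4 ran from 0.75 to 1.28 as single libraries were left out.

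Genes of seed maturation set replicates 1 and 2 of Succari at 142 DPA apart from all other libraries. The 5 seed genes of the list encode an oleosin, which coats oil bodies, the late embryogenesis proteins GEA6/Em6 and LEA4-5, a vicilin-like storage protein and Beta-TIP, an aquaporin of storage vacuoles. Their summed level was 3871 and 3939 CPM in Succari replicates 1 and 2 but 36.0 CPM in replicate 3, against 4.12 to 32.3 CPM in the other 9 libraries of the stage and 0.341 to 3.02 CPM at 45 DPA. All 5 had reads in each of the 3 Succari libraries. A pair of listed genes named for lipid transfer or seed storage proteins is not among these 5. One, Cs5g31010, was at 1.98 ± 0.774 CPM in Succari at 142 DPA and 0.215 to 0.435 CPM in the means of the other varieties. The other, Cs5g24670, went the opposite way, at 3.59 ± 1.32 CPM in Succari and 19.9 to 33.4 CPM in the means of the others. Within Succari at 142 DPA, HIPP27 and BOR4 were also lowest in replicate 3, at 6.72 and 7.47 CPM. KAT3 was highest there, at 10.3 CPM, and CNGC1, at 2.61 CPM, lay between the other replicates. Without replicates 1 and 2, and with the remaining library taken to vary like the other groups, the same log2 fold change was 2.44 (SE 0.353) for KAT3, 1.31 (SE 0.383) for BOR4, 1.15 (SE 0.665) for CNGC1 and 3.06 (SE 0.471) for HIPP27. The KAT3 difference was no smaller without those libraries. That of HIPP27 was smaller than with all libraries, where it was 4.75. Those of BOR4 and CNGC1, at 1.60 and 1.45 with all libraries, were smaller by less than the SE given here. Replicate 3 alone still stood above the 9 other libraries for each gene. The part of seed material in the levels of HIPP27 and the other genes was not tested.

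**Figure D4:**
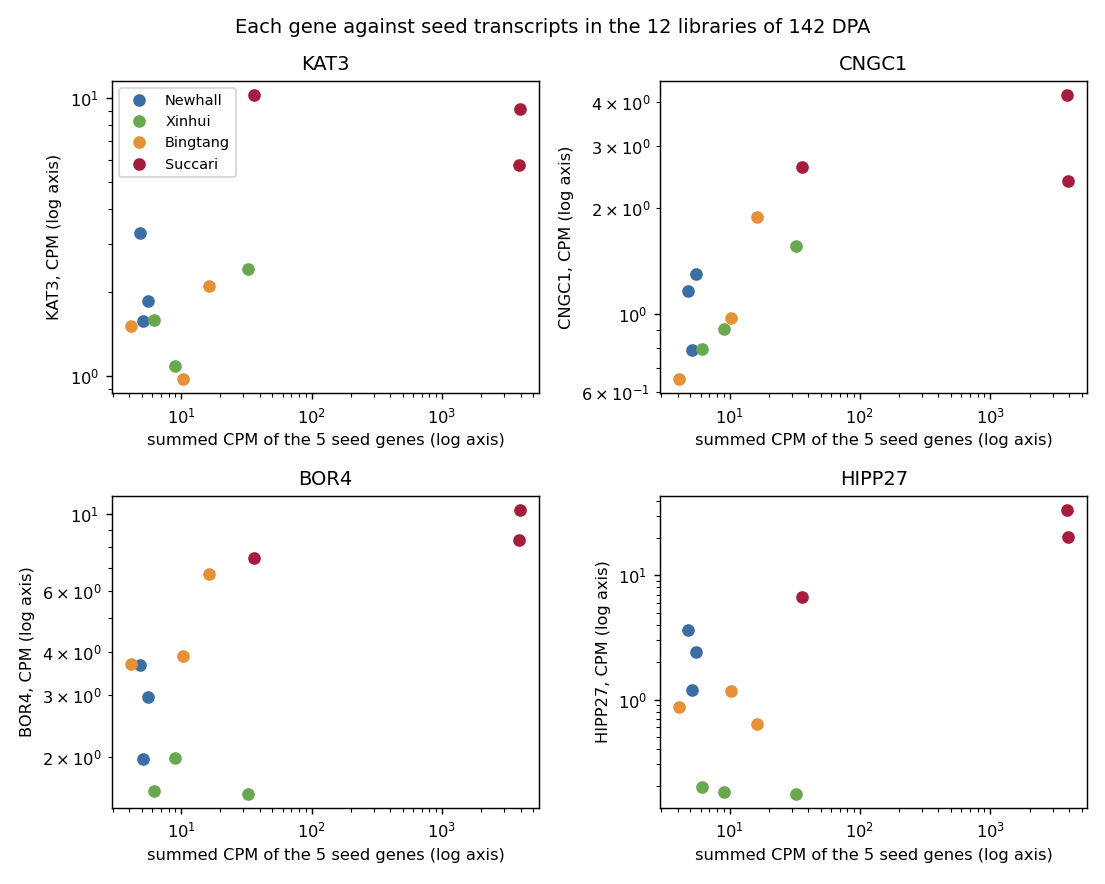
Level of each gene (CPM, vertical log axis) against the summed CPM of the 5 seed genes (horizontal log axis) in the 12 libraries of 142 DPA, coloured by variety. Succari replicates 1 and 2 lie at 3871 and 3939 CPM of seed transcripts and replicate 3 at 36.0 CPM (HIPP27 33.7, 20.5 and 6.72 CPM), and the other 9 libraries lie between 4.12 and 32.3 CPM.

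The varieties at 45 DPA were compared with a test, since the ratio that chose the genes differs little among them. Choice by correlation favours genes with little spread among such samples, so that few calls are no evidence of likeness. A call needed an adjusted p under 0.05 over all 20739 tested genes and at least a 2-fold difference. None of the 4 genes was called in any of 3 comparisons by edgeR, DESeq2 or limma. By edgeR's quasi-likelihood test 3.22% of tested genes were called between Succari and the mean of the other 3 varieties, 1.16% between Bingtang and the mean of Newhall and Xinhui, and 2.96% between Newhall and Xinhui. At an unadjusted p under 0.05 the counts were 0 of 4, 0 of 4 and 2 of 4, beside 23.4%, 16.5% and 18.5% of tested genes. The pair at the last were KAT3, with a log2 fold change of -1.12 for Newhall over Xinhui (SE 0.485, adjusted p = 0.207, edgeR), and BOR4, with -1.94 (SE 0.849, adjusted p = 0.210, edgeR), or -1.33 without Newhall replicate 1. All 3 Xinhui libraries of 45 DPA lay above those of Newhall for these 2 of the 4 genes, as for 20.1% of tested genes, and BOR4 had 10 reads against 2.

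For Succari over the other varieties at 45 DPA the log2 values, with intervals of 2 SE, were -0.34 for KAT3 (-1.20 to 0.51, adjusted p = 0.698, edgeR), 0.35 for BOR4 (-0.89 to 1.60, adjusted p = 0.807) and 0.04 for CNGC1 (-1.34 to 1.42, adjusted p = 0.998). Each of these intervals leaves room for a 2-fold difference. Single libraries turned the direction of the last pair. BOR4 was at -0.50 without Succari replicate 3 and 0.88 without Succari replicate 2, and CNGC1 was at -2.61 without Succari replicate 2 and 1.14 without Newhall replicate 2. HIPP27, with 1 read at that stage, could not be compared at this depth.

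Newhall and Xinhui at 142 DPA are set side by side without a p, because their libraries were part of the correlation and the ratio was not the same in both. HIPP27 stood higher in Newhall, with a log2 difference of 3.41 (SE 0.954). The reads of 3 libraries came to 38 against 3, a ratio of 13.2 (4.20 to 67.0, counting error only). All 3 Newhall libraries were above all 3 of Xinhui for this 1 of the 4 genes, as for 24.9% of tested genes. HIPP27 passed the threshold of a call in edgeR, as did 6.79% of tested genes. It did not pass without Newhall replicate 3 (2.98), Xinhui replicate 2 (3.39) or Xinhui replicate 3 (3.40). Nothing is read from this threshold, since the same libraries chose the genes. The log2 values of the other genes, with intervals of 2 SE, were 0.57 for BOR4 (-0.23 to 1.38), 0.22 for KAT3 (-0.60 to 1.03) and -0.19 for CNGC1 (-1.52 to 1.15).

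The log2 stage difference in Newhall minus that in Xinhui, also a description, was 2.52 for BOR4 (SE 0.940), 1.33 for KAT3 (SE 0.636) and -1.65 for CNGC1 (SE 1.61). The CNGC1 value rests on 3 and 1 reads at 45 DPA and ran from -3.45 to 1.66 as single libraries were left out. That of BOR4 ran from 1.89 to 3.00. None of the 4 genes passed the threshold in the main edgeR fit or in DESeq2, whereas 5.61% of tested genes passed in that edgeR fit. Limma put HIPP27 past it, on log2(CPM + 0.1) and on log2(CPM + 1), and edgeR with library totals only put BOR4 past it. At an unadjusted p under 0.05 there were 2 of the 4, BOR4 and KAT3, beside 26.2% of tested genes. Nothing is read from these counts or from the threshold, since stage differences and the ratio in these libraries chose the 4 genes. HIPP27 had no read at 45 DPA in either variety, so its stage differences could not be estimated with edgeR. Its limma value on log2(CPM + 0.1), 3.02, equals the difference at 142 DPA.

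The other 5 genes of the transport category are FUR1, a nucleoside transporter, ABCB21, an auxin transporter in Arabidopsis, Beta-TIP and the pair named for lipid transfer or seed storage proteins. At 142 DPA their log2 differences between Succari and the mean of the other varieties ranged from -2.92 to 8.15, with a median of 2.50, beside 1.90 for the 4 genes described here and 0.06 over all tested genes. The lowest was Cs5g24670 and the highest Beta-TIP, which is also among the seed genes. FUR1 was at 4.01 ± 1.80 CPM in Succari, 1.09 ± 0.251 CPM in Bingtang, 0.601 ± 0.448 CPM in Xinhui and 0.509 ± 0.290 CPM in Newhall. None of these 5 was called by edgeR, DESeq2 or limma between varieties at 45 DPA, where 1 had an unadjusted p under 0.05 for Succari and 0 for the other comparisons. Of the tested genes edgeR called 3.22% for Succari, 1.16% for Bingtang and 2.96% for Newhall against Xinhui. The shares at an unadjusted p under 0.05 were 23.4%, 16.5% and 18.5%. Cs5g31010 had 1 read at that stage, in Succari, and Beta-TIP 0 to 3 reads per variety, so these could hardly be called.

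A pair of genes named for copper proteins was set beside HIPP27, the copper amine oxidase Cs9g06700, of a family that oxidises amines in the cell wall and peroxisome, and the cupredoxin Cs9g13750. The list also holds IRX12, a laccase and thus a copper enzyme. For Succari over the other varieties at 142 DPA the log2 differences were 3.52 for the copper amine oxidase and 4.33 for the cupredoxin. The cupredoxin was at 4.02 and 5.13 CPM in Succari replicates 1 and 2, those with the high seed transcripts, but at 0.373 CPM in replicate 3, below Xinhui replicate 1 (0.398 CPM) and Bingtang replicate 3 (0.390 CPM). The copper amine oxidase was at 5.94, 10.4 and 5.79 CPM in the Succari libraries, 3.75, 2.41 and 2.89 CPM in those of Newhall and 0, 0.181 and 0 CPM in those of Xinhui, so that, like HIPP27, it was low in Xinhui. At 45 DPA the cupredoxin had no read in any variety. The copper amine oxidase had 1 read in Bingtang, 1 in Succari and none in Newhall and Xinhui. Neither gene was called between varieties at 45 DPA by edgeR, DESeq2 or limma, with 0 at an unadjusted p under 0.05. With so few reads no call was possible, so nothing is read from this.

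The levels of the 4 genes over the 24 libraries were set beside those of the other listed genes by Pearson's r on log2(CPM + 0.1). This is a description, as all were chosen for one pattern and share libraries and depth. HIPP27 was most like the laccase IRX12, of lignin formation in Arabidopsis (Cs7g31620, r = 0.950), a GDSL lipase gene (Cs5g18850, r = 0.947) and the copper amine oxidase (r = 0.924). Of all tested genes 1, 2 and 7 had a higher r with HIPP27 than these. KAT3 was most like a remorin-like gene (Cs5g03630, r = 0.898), PGI, the phosphoglucose isomerase of sugar metabolism (Cs3g24700, r = 0.856), and Cs5g23250, which has no name (r = 0.803). BOR4 came closest to TZP (Cs9g08500, r = 0.903), EMB2757 (Cs4g15700, r = 0.902) and the mannanase gene MAN7 (orange1.1t00612, r = 0.902), and CNGC1 to MAN7 (r = 0.872), the unnamed Cs7g06285 (r = 0.871) and Cs5g19950, named for a virus resistance protein (r = 0.845). Many unlisted genes were closer to CNGC1, since 69, 77 and 368 tested genes had a higher r with it than the 3 named. The numbers were 23, 24 and 25 for BOR4, and 0, 1 and 19 for KAT3.

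Among the 4 genes themselves, r over 24 libraries ran from 0.681 for KAT3 and CNGC1 to 0.844 for BOR4 and HIPP27. Without the 3 Succari libraries of 142 DPA it was lower for each pair, from 0.477 for KAT3 and HIPP27 to 0.790 for BOR4 and HIPP27. KAT3 was in the 3 pairs with the lowest values over those 21 libraries.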

How the data were processed

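The authors deposited one table of counts for 24166 genes in 24 libraries. Its title speaks of RPKM, but the values are whole numbers that the authors' headings call unique reads, a dash means no read, and each column adds up to the total in its heading. No aligner or build was named in the sources used here. Columns were mapped to samples by their labels. CPM was computed from library totals. Genes entered the test if 3 or more libraries reached 0.3 CPM, which left 20739, and were compared with edgeR 4.0.16 (quasi-likelihood, TMM scaling, R 4.3.3) in one fit of 8 groups, with Benjamini-Hochberg adjustment. Newhall against Xinhui at 142 DPA and in the stage difference had been set down as tests and are given as a description. An SE is the log2 fold change divided by the square root of F. A group without reads was set to 3 reads, which gives a ratio without an interval. Alternatives used DESeq2 1.42.0, limma 3.58.1, other scalings, filters and pseudocounts, a replicate block, the compared groups only, and left-out libraries. The scripts were tested on simulated data.

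The genes, lists and alternatives were chosen with earlier results of these data known. The 4 genes get full values, the other transport genes, the copper genes and the seed genes are summarised, and the 3 listed genes with the highest r to each gene are named. Of the 24166 IDs 0 matched the reference table, so names come from the published list, and coordinates and sequences were not used here.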

Additional observations from a re-analysis of the deposited data

How the results depend on the processing

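The HIPP27 difference between Newhall and Xinhui at 142 DPA kept its direction under each alternative that was run. It ran from 2.98 to 3.74 as single libraries were left out, and was 1.46 with limma on log2(CPM + 1). Some other values changed direction, as given beside BOR4 and CNGC1 above. In the difference of stage differences BOR4 was at 2.73 with library totals only, where it passed the threshold of a call, unlike in the main fit. HIPP27 was there at 3.02 with limma on log2(CPM + 0.1) and at 1.46 with limma on log2(CPM + 1). For Succari over the other varieties at 142 DPA, limma on log2(CPM + 1) gave 0.94 for CNGC1 and 3.21 for HIPP27, and HIPP27 was 3.06 without Succari replicates 1 and 2. By Spearman's rho, or without the Succari libraries of 142 DPA, 1 of the 3 genes most like HIPP27 was shared with those named, as was 1 of 3 for CNGC1 with a pseudocount of 1. A larger pseudocount reduces the fold change of low genes by its construction. Otherwise the cause was not tested. Over all genes, fitting the compared groups only called 429 against 240 genes for Bingtang and 981 against 614 for Newhall against Xinhui at 45 DPA, and for Succari at 45 DPA limma on log2(CPM + 1) called 369 and the fit without Succari 45 DPA replicate 2 called 441, against 668. With library totals only, 1097 genes were higher and 468 lower in Newhall than in Xinhui at 142 DPA, against 770 and 638, with a median of 0.17 over all genes. The stage contrast had 969 and 394, against 510 and 653, with a median of 0.26.

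Replicate numbers are shared between groups, but same-numbered libraries did not deviate together (r from -0.134 to 0.105 over 84 pairs), so that no pairing by this number was seen. Other pairings of the libraries were not tested. With the replicate number as a block, HIPP27 differed between Newhall and Xinhui at 142 DPA by 3.49 on the log2 scale, and the block changed no call. At 45 DPA the depth limits CNGC1 and HIPP27, with 1 to 3 and 0 to 1 reads per variety.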
